A study of Mus musculus with 10 samples.

Results

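The sensors of the unfolded protein response, the membrane-anchored bZIP transcription factors of the endoplasmic reticulum (ER) and the proteases that release them were examined as 10 genes: Ern1, Eif2ak3, Atf6, Atf6b, Xbp1, Creb3, Creb3l1, Creb3l2, Mbtps1 and Mbtps2. They were taken by name from the 48709 genes of the count tables through the GENCODE M21 annotation, and all 10 were found. All 10 also passed the filter on low counts that left 15660 genes for testing. The cells were primary mouse hippocampal neurons, taken from the hippocampus and kept in culture for 10 days. In 6 libraries the cultures had received tunicamycin at 2 ug/mL for 6 h, and in 4 libraries they had received DMSO, the solvent control, for the same time. Neither the strain and age of the animals nor whether libraries came from separate cultures is given in the sources used here, so the spread behind each p-value is that among libraries and could be technical alone.

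Tunicamycin stops the first step of N-linked glycosylation, and glycoproteins that lack their sugars misfold in the ER. IRE1 (encoded by Ern1), PERK (Eif2ak3) and ATF6 sit in the ER membrane and report misfolding to the nucleus. IRE1 cuts a short segment out of the Xbp1 mRNA, which changes the reading frame and yields an active transcription factor. PERK phosphorylates eIF2 and so slows translation while favouring that of Atf4. ATF6 travels to the Golgi, where the site-1 protease (Mbtps1) and then the site-2 protease (Mbtps2) cut it and free its bZIP domain. Creb3, Creb3l1 and Creb3l2 encode factors of the same build that are released by the same proteases. Activity of all these proteins is set largely after transcription, so transcript levels describe their supply and not their activation.

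Depth was 2.11e+07 to 2.92e+07 counts per library, and the 10 genes had between 371 and 6856 counts in any library. Levels are given as CPM, a gene's counts scaled to a library total of 1e6 counts. Markers of neurons were abundant, with a summed level of 7934.8 to 8547.0 CPM with DMSO and 6741.8 to 7084.1 CPM with tunicamycin. Of these markers 9 of 12 were lower in the test (Map2 by log2 -0.20 and Stmn2 by -0.28), as were 32.5% of all genes tested. Astrocyte markers were present as well and were lower in 11 of 11 cases (Slc1a2 by log2 -0.38, Slc1a3 by -0.83), with sums of 3536.2 to 3918.5 CPM against 2433.9 to 2654.2 CPM. Oligodendrocyte lineage markers summed to 191.3 to 241.0 CPM against 121.6 to 146.8 CPM, with 4 of 8 tested lower (among them Olig1 and Cnp) and 1 higher. Microglia markers summed to 16.8 to 20.3 CPM against 12.1 to 14.7 CPM, with 5 of 7 tested lower, but Aif1 (log2 0.00) and Csf1r (log2 -0.10) did not pass. Sums of fibroblast and mural cell markers (Fn1, Col1a1 and others) ran from 195.3 to 352.2 CPM against 263.2 to 393.0 CPM. Those of endothelial markers (Kdr, Flt1 and others) ran from 35.6 to 75.1 CPM against 52.6 to 79.1 CPM. Both sums overlapped between groups. Nearly all of the endothelial sum was Kdr, at a mean of 50.6 CPM with DMSO and 58.4 CPM with tunicamycin. Of the 10 fibroblast and mural cell markers Fn1 rose (log2 1.26) and Dcn (-0.46) and Rgs5 (-0.62) fell, the latter pair named after their values were seen. Of the 4 endothelial markers tested Flt1 rose (1.19), at a low level (0.688 CPM with DMSO, 1.62 CPM with tunicamycin). No marker was at 0 in every library, though Cldn5, Tek, Pecam1, Cdh5, Itgam, P2ry12, Tmem119 and Sox10 each had a mean under 1 CPM in both groups. In such bulk samples fewer cells of a type and less RNA per cell cannot be told apart, and the part of these shifts in the values below was not tested.

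Tunicamycin raised the transcripts of 7 of the 10 genes, lowered 1 slightly and left 2 that did not pass the test. The genes that rose were the sensors Eif2ak3, Ern1 and Atf6, the factor Xbp1, and Creb3, Creb3l1 and Creb3l2. The relative Atf6b and the site-2 protease did not pass, and the site-1 protease fell. Across all genes 31.8% passed the test in the higher direction, 32.5% in the lower direction and 64.3% in either. A call as such was therefore common in these data. Of the 10 genes, 4 rose at least 2-fold (Eif2ak3, Creb3l2, Xbp1 and Atf6), against 2.78% of all genes tested. The median log2 fold change of the 10 genes was 0.80, and that of all genes tested was -0.02. All tunicamycin libraries lay above all DMSO libraries for 7 of the 10 genes, against 27.0% of all genes. They lay below them for Mbtps1, as for 23.9% of all genes.

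**Figure D1:**
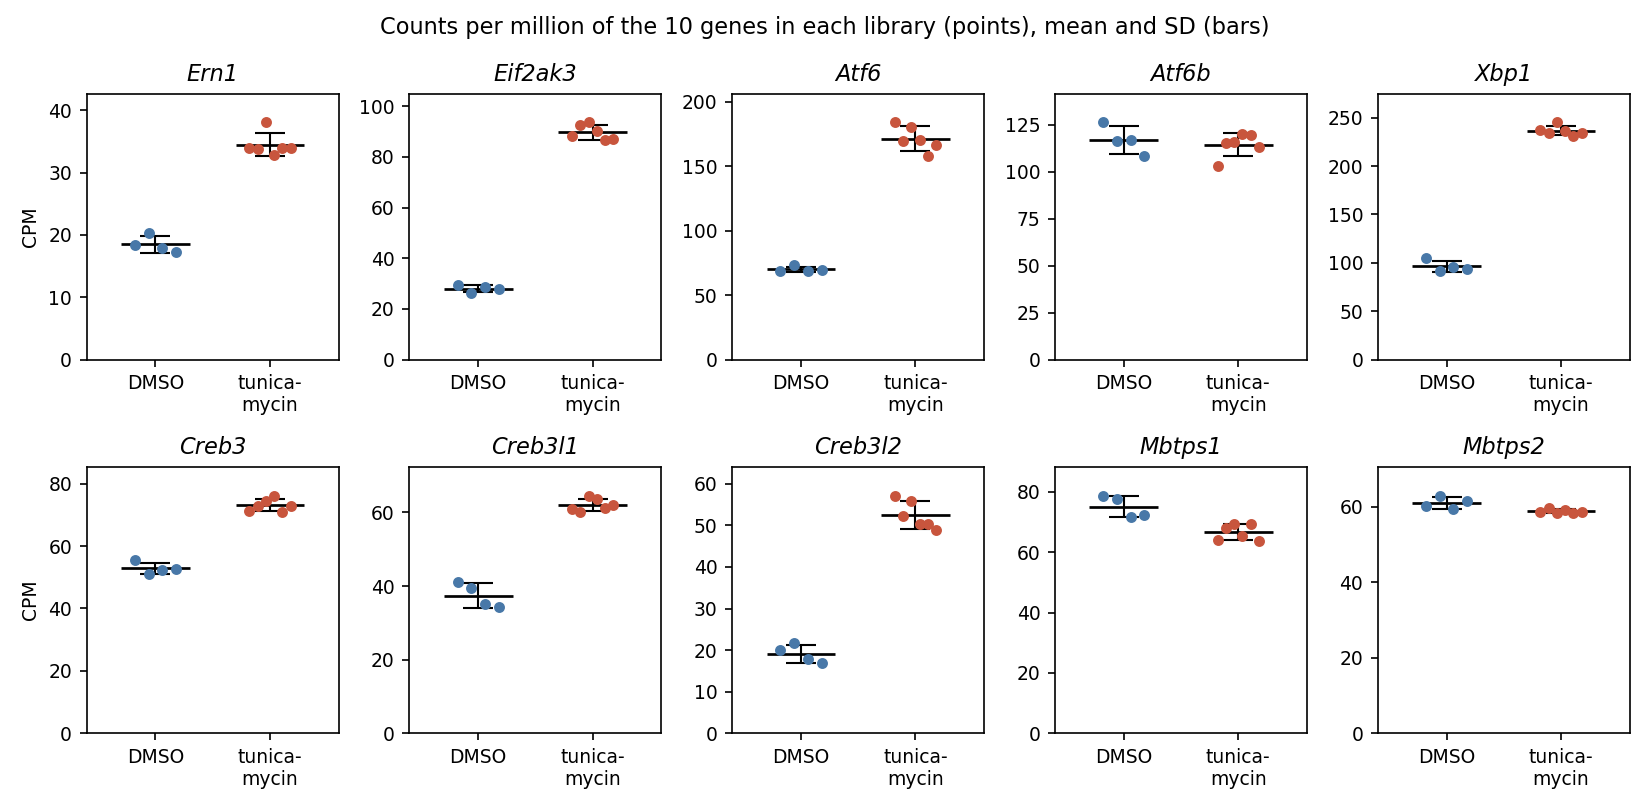
Level of each of the 10 genes in CPM (vertical axes, from 0), by library. Points are libraries (4 DMSO, 6 tunicamycin), with the mean and SD in black. The groups are apart for 8 genes and overlap for Atf6b and Mbtps2.

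Eif2ak3 encodes PERK, the ER-resident kinase of eIF2, and showed the largest rise of the 10. Its gene (ENSMUSG00000031668) lies on chromosome 6 at 70844515 to 70905245 (GRCm38, plus strand). The DMSO libraries held 29.3, 26.4, 28.6 and 28.0 CPM. The tunicamycin libraries had a lowest value of 86.6, a median of 89.2 and a highest of 93.8 CPM. Every treated library stood far above every control, and the spread within each group was small. The mean was 28.0 ± 1.24 CPM (SD, n = 4) in controls and 89.7 ± 2.96 CPM (SD, n = 6) in treated cultures. Eif2ak3 rose 3.18-fold (log2 1.67 ± 0.04, SE; edgeR adjusted p = 3.38e-19), and ranked 121 of 15660 genes from the largest log2 fold change. Of its exonic bases, 8.05% overlap a transcript model on the other strand, which this kit cannot tell from Eif2ak3.

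Ern1 encodes IRE1 alpha, a kinase and endoribonuclease in a single protein. It lies on chromosome 11 at 106394650 to 106487852 (ENSMUSG00000020715, minus strand). In the DMSO libraries Ern1 stood at 18.4, 20.3, 17.9 and 17.3 CPM. With tunicamycin the lowest value was 32.8, the median 34.0 and the highest 38.1 CPM. All 6 treated libraries were above the highest control, and 1 of them, replicate 3, stood above the other 5. Ern1 rose 1.85-fold, a log2 fold change of 0.89 ± 0.05 (SE; edgeR adjusted p = 3.23e-12). Its relative Ern2, the form of IRE1 found mainly in mucosal epithelium, was at 0.0113 CPM with DMSO and had no count with tunicamycin, too little to test.

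Within a library the ratio of Ern1 to Eif2ak3 counts can be followed without any scaling between libraries. It was 0.658 with DMSO and 0.384 with tunicamycin, so the balance of both sensor transcripts moved towards PERK. The log2 ratio went from -0.60 ± 0.153 (SD, n = 4) to -1.38 ± 0.065 (SD, n = 6), with no overlap between groups (two-sided exact permutation p = 0.00952, 0.0143 adjusted over 6 pairs). That p is the smallest that 4 against 6 libraries can give here.

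Atf6 encodes the sensor that is itself a transcription factor, held in the ER membrane until it is cut. It lies on chromosome 1 at 170704674 to 170867771 (ENSMUSG00000026663, minus strand). Control libraries held 69.1, 73.1, 68.6 and 69.9 CPM. With tunicamycin the lowest library held 158.2, the median was 169.9 and the highest held 184.4 CPM. The controls lay within a few CPM of each other, and the lowest treated library had more than double the highest control. Atf6 rose 2.43-fold, a log2 fold change of 1.28 ± 0.04 (SE; edgeR adjusted p = 6.23e-17).

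Atf6b encodes a close relative of ATF6 that is cut by the same proteases and is described as the weaker activator. It lies on chromosome 17 at 34647146 to 34655074 (ENSMUSG00000015461, plus strand). Its DMSO values were 126.4, 116.1, 116.8 and 108.3 CPM. With tunicamycin the lowest was 103.1, the median 115.4 and the highest 119.9 CPM. The groups overlapped, with 1 treated library below the lowest control and none above the highest. Atf6b did not pass (log2 -0.04 ± 0.04, SE; edgeR adjusted p = 0.417), and the 95% interval was -0.13 to 0.05. By lane of the sequencer, as the file names give it, the log2 fold change was -0.15 in lane 1 (adjusted p = 0.0407), -0.01 in lane 2 and 0.08 in lane 3. Lane 1 holds 2 DMSO libraries but lanes 2 and 3 hold only 1 each, against 2 tunicamycin libraries in every lane, so values from lanes 2 and 3 rest on a single control and do not show a change of direction. Under upper-quartile scaling, which moved the median of all genes by -0.115, it passed at -0.15.

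The difference between these relatives was itself tested. The ratio of Atf6 to Atf6b counts went from 0.601 with DMSO to 1.5 with tunicamycin. The log2 ratio was -0.73 ± 0.108 (SD, n = 4) and 0.59 ± 0.147 (SD, n = 6), a difference of 1.32 (two-sided exact permutation p = 0.00952, 0.0143 adjusted over 6 pairs). Every treated library had more Atf6 than Atf6b counts, and every control had fewer. These counts are not divided by the length of the genes. Per kilobase of exon Atf6b stayed above Atf6 with tunicamycin, at a mean of 41.5 against 18.6 CPM.

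Xbp1 encodes the factor that IRE1 activates by splicing, and its transcript is the substrate on which the IRE1 branch depends. It lies on chromosome 11 at 5520659 to 5525893 (ENSMUSG00000020484, plus strand). The segment that IRE1 removes is shown because the deposited counts cannot see it. It was found as the stretch between the third and the fourth base of a pair of CNGCAGN motifs, the sequence IRE1 cuts, spaced 26 bases apart. The match lies in coding sequence of exon 4 of the 5 exons of the longest Xbp1 transcript, and in 3 of the 4 annotated transcripts. Capitals mark the 26 bases, and lower case the 20 bases on each side (chr11:5524259-5524324, GRCm38, plus strand).
Xbp1 around the excised segment: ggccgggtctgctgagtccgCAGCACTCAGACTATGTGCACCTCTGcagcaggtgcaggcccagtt
A second such pair lies in exon 1, and 1.68% of 21901 genes with coding transcripts hold a pair at this spacing, so the letters alone do not mark a substrate. The exon 4 copy is the one known as the excised segment. Its 26 bases leave a remainder of 2 when divided by 3, so its removal shifts the frame.

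Counts per gene add the spliced and unspliced forms of Xbp1, and only their sum could be followed. With DMSO the libraries held 104.6, 91.5, 95.8 and 93.7 CPM. With tunicamycin the lowest was 231.2, the median 235.4 and the highest 245.5 CPM. The treated libraries were closely spaced, at 236.5 ± 4.85 CPM (SD, n = 6), and far above the controls, at 96.4 ± 5.72 CPM (SD, n = 4). Xbp1 rose by a log2 fold change of 1.29 ± 0.04 (SE; edgeR adjusted p = 4.18e-18).

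Xbp1 is also described as a transcriptional target of ATF6, and the rises of both transcripts were compared. The log2 ratio of Xbp1 to Atf6 counts averaged 0.46 in both groups, with an SD of 0.114 over 4 control and 0.061 over 6 treated libraries. The values ran from 0.32 to 0.60 and from 0.36 to 0.55, and no difference was detected (two-sided exact permutation p = 0.886, 0.886 adjusted over 6 pairs). A difference smaller than the spread between these libraries would not have been seen.

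The CREB3-type factors are ER membrane proteins that work mainly in secretory and growth programmes. All 3 in the group rose, by unequal amounts. Creb3l2, described as driving COPII coat genes in cartilage, lies on chromosome 6 at 37327255 to 37442146 (ENSMUSG00000038648, minus strand). Its control libraries held 19.9, 21.7, 17.9 and 16.8 CPM, and with tunicamycin the lowest was 48.9, the median 51.3 and the highest 57.2 CPM. No library of either group came near the other group. Creb3l2 rose 2.72-fold, a log2 fold change of 1.45 ± 0.06 (SE; edgeR adjusted p = 1.05e-13), the second largest of the 10.

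Creb3l1, also called OASIS and first described in astrocytes, lies on chromosome 2 at 91982328 to 92024502 (ENSMUSG00000027230, minus strand). Its DMSO libraries held 41.0, 39.4, 35.0 and 34.2 CPM, and with tunicamycin the lowest was 60.2, the median 61.6 and the highest 64.6 CPM. It rose 1.65-fold (log2 fold change 0.72 ± 0.04, SE; edgeR adjusted p = 4.2e-12). The astrocyte markers given above were lower, and which cells held Creb3l1 was not tested. By lane the log2 fold change was 0.59, 0.85 and 0.83. Creb3, also called Luman, lies on chromosome 4 at 43562332 to 43567060 (ENSMUSG00000028466, plus strand). Its DMSO libraries held 55.4, 51.0, 52.4 and 52.5 CPM, and with tunicamycin the lowest was 70.9, the median 72.8 and the highest 76.2 CPM. The groups were apart, but the rise of 1.38-fold was the smallest of the 7 (log2 fold change 0.46 ± 0.03, SE; edgeR adjusted p = 1.33e-10). Exons of Gba2 and Tln1 on the other strand overlap 20.8% of its exonic bases, so part of its counts is uncertain.

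Creb3l2 moved more than its relatives when compared within libraries. The ratio of Creb3l2 to Creb3l1 counts was 0.509 with DMSO and 0.844 with tunicamycin, a log2 difference of 0.73. The ratio of Creb3l2 to Creb3 counts was 0.360 and 0.717, a log2 difference of 1.0. Neither ratio overlapped between groups (two-sided exact permutation p = 0.00952 for each, 0.0143 adjusted over 6 pairs). The remaining relatives were scarce. Creb3l3, a factor of liver and gut, averaged 0.213 ± 0.210 CPM in controls and 0.133 ± 0.0421 CPM in treated libraries (SD), and Creb3l4 0.187 ± 0.0818 and 0.289 ± 0.111 CPM. Both fell under the filter and were not tested.

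Neither protease rose. Mbtps1, the subtilisin-like site-1 protease of the Golgi, lies on chromosome 8 at 119508156 to 119558735 (ENSMUSG00000031835, minus strand). Controls held 78.8, 77.6, 71.6 and 72.5 CPM. With tunicamycin the lowest was 63.8, the median 66.6 and the highest 69.4 CPM. All treated libraries were below all controls, by a narrow margin. Mbtps1 fell to 0.881 of its DMSO level, a log2 fold change of -0.18 ± 0.04 (SE; edgeR adjusted p = 0.000187). In single lanes it was -0.24, -0.11 and -0.14, the last 2 against 1 DMSO library each (adjusted p = 0.234 and 0.121). It passed in all 10 fits that left out 1 library, at -0.20 to -0.16.

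Mbtps2, the site-2 metalloprotease that cuts inside the membrane, lies on chromosome X at 157535371 to 157598715 (ENSMUSG00000046873, minus strand). The 4 control libraries held 60.3, 63.0, 59.4 and 61.5 CPM. With tunicamycin the lowest was 58.3, the median 58.7 and the highest 59.6 CPM. Of the 6 treated libraries 5 were below the lowest control, and the sixth lay just inside the range of the controls. Mbtps2 did not pass (log2 -0.06 ± 0.03, SE; edgeR adjusted p = 0.0995), and the 95% interval was -0.13 to 0.01. Under upper-quartile scaling it passed at -0.18, a value that includes the shift of -0.115 of all genes. The gene Yy2 overlaps 28.4% of its exonic bases on the same strand. Of the 50-base stretches in its transcripts, 28.9% also occur in transcripts of other genes (368 of them), on either strand. The level of Mbtps2 is therefore uncertain.

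The ratio of Mbtps1 to Mbtps2 counts was 1.23 with DMSO and 1.13 with tunicamycin. The log2 difference was -0.12, with values of 0.24 to 0.39 and 0.12 to 0.25 that overlapped (two-sided exact permutation p = 0.0286, 0.0343 adjusted over 6 pairs). The adjusted permutation p was over 0.05 when any of 7 of the 10 libraries was left out (0.0571 or 0.0857). Those libraries were DMSO replicates 1, 2 and 3 and tunicamycin replicates 1, 2, 4 and 6. The log2 difference without them was -0.13 to -0.09. Leaving out a library also leaves fewer splits to permute, which can raise p by itself. These p-values therefore cannot tell whether the difference is fragile.

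**Figure D2:**
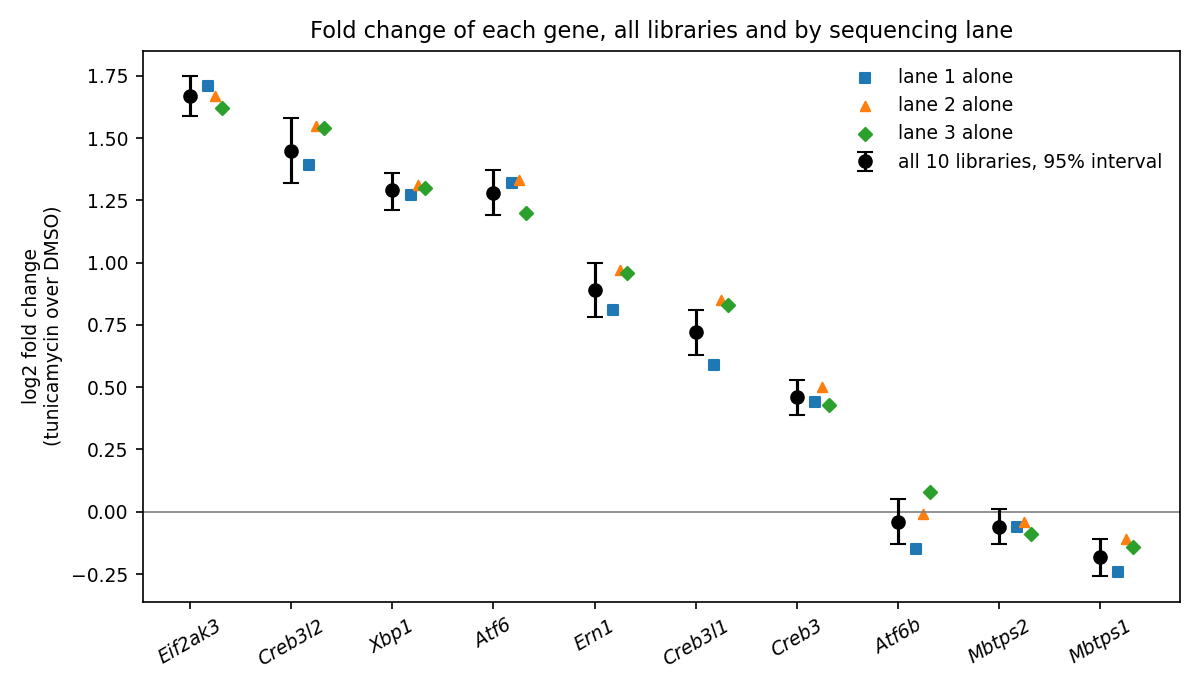
Log2 fold change (tunicamycin over DMSO, vertical axis) of each gene, ordered by size. Black points and bars give the estimate from all 10 libraries with its 95% interval, and coloured points the estimate in each sequencing lane alone, where lanes 2 and 3 have 1 DMSO library each. The 7 rising genes stay above 0.35 in every lane, and Atf6b runs from -0.15 to 0.08.

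**Figure D3:**
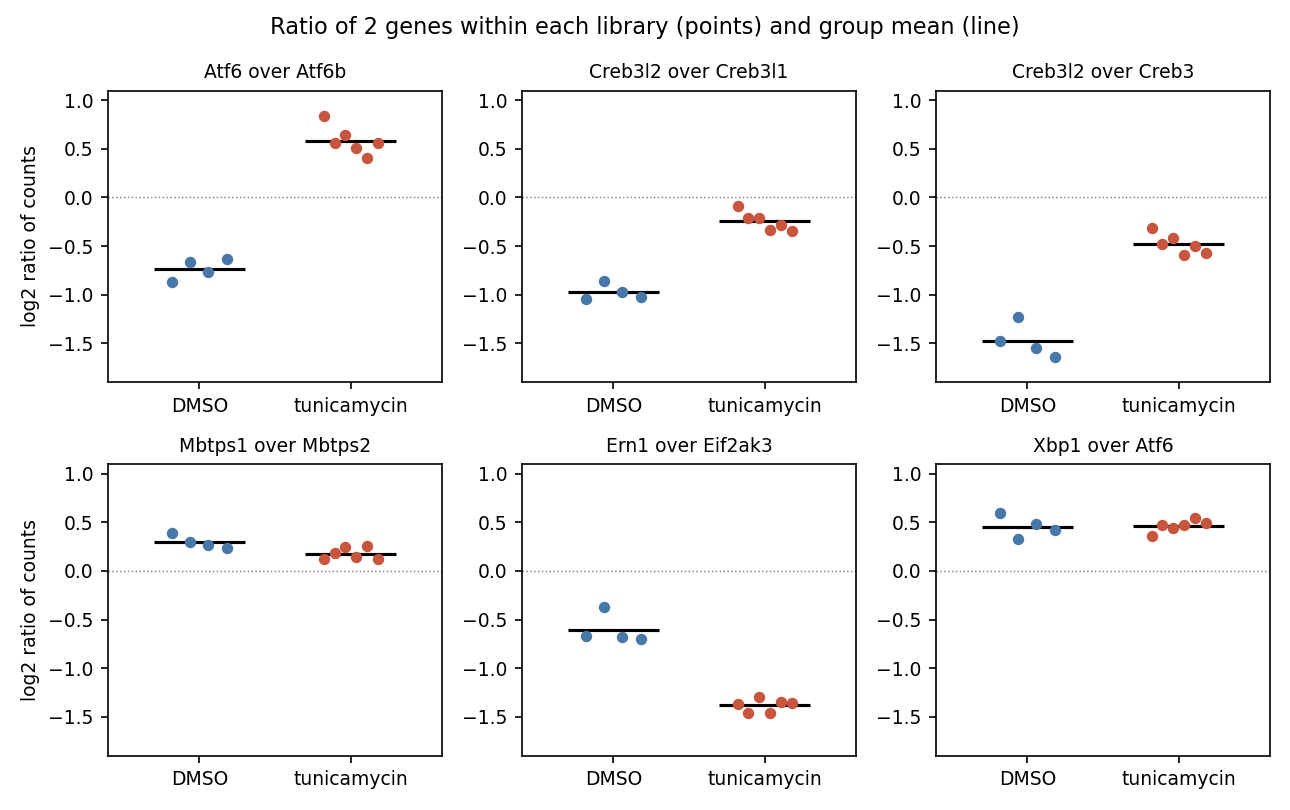
Log2 ratio of the counts of 2 genes in the same library (vertical axes), for 6 pairs. Points are libraries and lines group means. Atf6 over Atf6b crosses 0 between the groups, in counts not divided by gene length, and Xbp1 over Atf6 has a mean of 0.46 in both.

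Apart from the count ratios above, levels were compared between genes only after division by exon length, as CPM per kilobase of all annotated exons of a gene. With DMSO Atf6b was the most abundant of the 10, at 42.4 ± 2.70 CPM per kilobase (SD, n = 4). Xbp1 followed at 29.7 ± 1.76, Creb3 at 22.3 ± 0.770 and Creb3l1 at 14.4 ± 1.27. Lower still were Atf6 at 7.60 ± 0.218, Mbtps1 at 7.13 ± 0.342, Mbtps2 at 6.04 ± 0.156 and Eif2ak3 at 4.65 ± 0.205. The scarcest were Creb3l2 at 2.62 ± 0.300 and Ern1 at 2.26 ± 0.163. Neighbours in this order whose libraries overlapped were Atf6 with Mbtps1, and Creb3l2 with Ern1.

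With tunicamycin Xbp1 stood first, at 72.8 ± 1.49 CPM per kilobase (SD, n = 6), and Atf6b second at 41.5 ± 2.22. Creb3 was at 30.8 ± 0.841, Creb3l1 at 23.8 ± 0.658, Atf6 at 18.6 ± 1.04 and Eif2ak3 at 14.9 ± 0.492. Creb3l2 at 7.20 ± 0.457 now lay above Mbtps1 at 6.32 ± 0.245 and Mbtps2 at 5.82 ± 0.0516, and Ern1 remained last at 4.21 ± 0.229. No neighbours overlapped in this group. The order depends on the length used. With the length of the longest transcript Atf6b and Xbp1 were close with DMSO, at 45.6 and 45.3 CPM per kilobase, and apart with tunicamycin, at 44.6 and 111.1. By that length Mbtps2 reached 12.7 CPM per kilobase with DMSO and 12.3 with tunicamycin, and the proteases then stood above Creb3l2 in both groups.

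**Figure D4:**
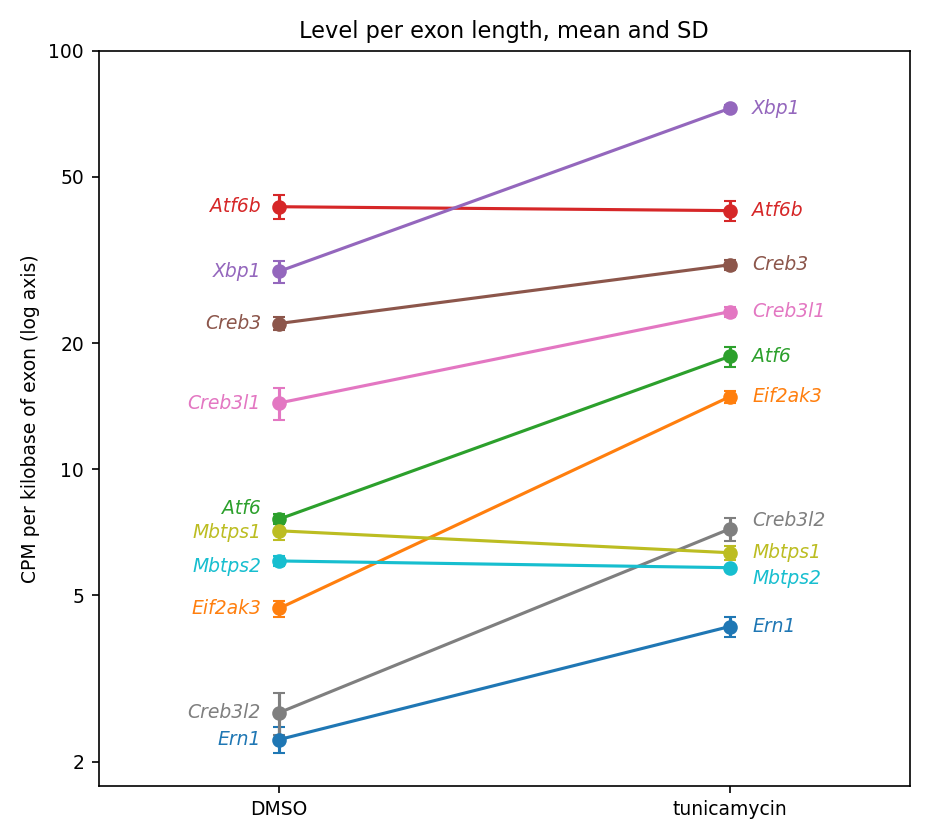
Level of the 10 genes in CPM per kilobase of exon (vertical axis, logarithmic) with DMSO and with tunicamycin. Points are means and bars SD (4 and 6 libraries). By this length Xbp1 crosses Atf6b between the groups, and Eif2ak3 and Creb3l2 cross both proteases.

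The starts of the genes were searched for known stress motifs in the 250 bases before the transcription start, from RefSeq on GRCm38.p6. Such a window was available for 8 of the 10 genes, all but Atf6 and Creb3l1. The RefSeq start of Creb3 lies 326 bases downstream of its start in GENCODE. Its whole window is therefore inside the gene as GENCODE gives it. The search covered both strands for the ER stress element ERSE (CCAAT, any 9 bases, CCACG), ERSE-II (ATTGG, any 1 base, CCACG), the core of the unfolded protein response element (TGACGTGG), the amino acid response element CARE (TGATGNAA) and the cAMP response element (TGACGTCA). None of the 8 windows held any of these letters, which says only that they are not in this window. Among 32851 windows, 0.113% held ERSE, 0.0304% ERSE-II, 0.563% the TGACGTGG core, 3.45% CARE and 1.55% the cAMP element. The windows of Hspa5 and Creld2, ER stress genes named below, each held 1 ERSE.

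The CCAAT box, which is also the first part of ERSE, was present in the windows of Eif2ak3, Creb3l2 and Atf6b and in 33.8% of all windows. Eif2ak3 held 6 copies, 4 on the gene's strand and 2 on the other, and 19 of 32851 windows (0.0578%) held 6 or more. Creb3l2 held 2 copies and Atf6b 1. The last part of ERSE, CCACG, was present in the windows of Ern1, Creb3 and Mbtps1 and in 28.3% of all windows. The CCAAT count was singled out after it was seen, and a match is a description and not a binding site. The windows of Xbp1, Ern1 and Creb3, which also rose, held no CCAAT. Shown are the windows of Eif2ak3, Creb3l2 and Atf6b, the 3 that held it, with CCAAT and its reverse complement ATTGG in capitals.
Eif2ak3 (chr6:70844265-70844514, plus strand): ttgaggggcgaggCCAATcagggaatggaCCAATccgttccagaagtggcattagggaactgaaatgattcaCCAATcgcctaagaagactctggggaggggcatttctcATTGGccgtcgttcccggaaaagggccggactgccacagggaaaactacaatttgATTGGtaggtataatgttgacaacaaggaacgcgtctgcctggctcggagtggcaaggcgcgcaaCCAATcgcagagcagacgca
Creb3l2 (chr6:37442149-37442398, minus strand): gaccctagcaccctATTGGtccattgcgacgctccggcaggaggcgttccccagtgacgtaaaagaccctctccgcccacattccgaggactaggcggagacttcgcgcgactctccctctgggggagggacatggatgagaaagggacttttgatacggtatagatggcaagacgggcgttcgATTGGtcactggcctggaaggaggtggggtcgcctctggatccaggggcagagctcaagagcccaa
Atf6b (chr17:34646896-34647145, plus strand): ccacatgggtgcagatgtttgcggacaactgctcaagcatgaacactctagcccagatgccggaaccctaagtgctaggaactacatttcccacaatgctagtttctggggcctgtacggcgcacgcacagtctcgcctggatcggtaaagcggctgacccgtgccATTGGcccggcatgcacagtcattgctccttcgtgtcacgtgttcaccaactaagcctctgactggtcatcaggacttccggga
The copies of Eif2ak3 are spread over the whole window, and the single copy of Atf6b is on the strand opposite to the gene.

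Genes that act with the 10, or that their products are known to control, were followed as 6 lists. Of all genes tested 31.8% were called higher, 32.5% lower and 64.3% in either direction. Counts of calls in the lists are to be read beside these shares. Partners of IRE1 and of Xbp1 splicing were divided. Of 18 tested 10 rose and 4 fell, and the median of their log2 changes was 0.16. Hspa5, the chaperone BiP that holds the sensors inactive, went up from 613.4 ± 44.6 to 3210.9 ± 149.8 CPM (SD, 4 and 6 libraries). Pdia6, a disulfide isomerase that binds IRE1 and PERK, rose 2.61-fold, Ufl1, a UFMylation ligase, 1.61-fold and Map3k5, the kinase ASK1, 1.39-fold. The 4 that fell were Tmbim6, a membrane inhibitor of IRE1 (log2 -0.29), Zbtb8os, a cofactor of the tRNA ligase (-0.24), and the JNK kinases Mapk8 (-0.09) and Mapk9 (-0.08). The last 3 of these did not pass without DMSO replicate 4 (edgeR adjusted p = 0.0769, 0.0893 and 0.0577), nor with no filter on low counts. Rtcb, the ligase that joins the cut Xbp1 ends, was at 141.4 ± 5.97 CPM with DMSO and 144.7 ± 4.05 CPM with tunicamycin and did not pass (log2 0.03, edgeR adjusted p = 0.538).

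In the PERK branch 12 of 14 genes rose and 1 fell (median log2 1.08), against 31.8% and 32.5% of all genes tested. The CHOP gene Ddit3 rose by log2 2.93 ± 0.04 (SE), although other annotated entries overlap 10.9% of its exonic bases. Among these is a second entry that is also named Ddit3. Trib3, a pseudokinase that CHOP induces, rose by 4.10 ± 0.08 and Atf4, the factor whose translation PERK favours, by 1.39 ± 0.03. Dnajc3, an ER co-chaperone also known as an inhibitor of PERK, rose 3.60-fold. Among the other eIF2 kinases Eif2ak2, the double-stranded RNA sensor PKR, fell (log2 -0.43), Eif2ak4, the amino acid sensor GCN2, rose (0.20), and Eif2ak1, the heme-regulated kinase, did not pass (0.03).

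Described targets and trafficking partners of ATF6 were higher in 17 of 17 tested cases (median log2 1.55), against 31.8% of all genes tested. Herpud1, a membrane protein of ER-associated degradation, rose 7.57-fold, Creld2, a folding factor of the ER lumen, 8.51-fold and Hyou1, an ER Hsp70 relative, 2.92-fold. Described targets of XBP1 were higher in 21 of 21 cases (median log2 0.96). Hyou1, Pdia6 and Dnajc3 are on this list as well, and Syvn1, the ubiquitin ligase HRD1, rose 2.87-fold. The lists share genes and were chosen with earlier results of these data known, so their counts are a description beside the median of -0.02 of all genes.

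Relatives, cofactors and described targets of the CREB3-type factors form a smaller list. Of 11 tested, 6 rose and 0 were called lower (median log2 0.25). Of all genes tested 31.8% were called higher, 32.5% lower and 64.3% in either direction. Calls in either direction were therefore not more common in this list. Calls in the higher direction made up a larger share than among all genes, and calls in the lower direction were absent. Whether these shares differ from those of all genes was not tested. Sec24d, a COPII coat protein that is also on the XBP1 list, rose 2.40-fold. Golga2, a Golgi matrix protein, Kdelr2, a retrieval receptor, and Hcfc1, a coregulator that binds CREB3, rose 1.19-fold, 1.31-fold and 1.21-fold. Sec23a, the COPII gene most often linked to Creb3l2, did not pass (log2 0.02 ± 0.03), nor did Arf4, linked to Creb3 (0.03 ± 0.03). Col1a1, linked to Creb3l1 in bone, did not pass either (-0.51 ± 0.30, SE; edgeR adjusted p = 0.164), but passed at -0.72 without DMSO replicate 4.

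Other substrates and partners of the proteases were mostly lower. Of 12 tested, 8 fell and 3 rose (median log2 -0.30), against 32.5% and 31.8% of all genes tested. Sqle, squalene epoxidase, fell (log2 -0.67), as did Insig1, which holds the SREBP complex in the ER (-0.89), and Gnptab, a phosphotransferase that the site-1 protease activates (-0.33). Srebf1 (-1.11) and Srebf2 (-0.30), which encode the SREBP precursors cut by both proteases, also fell. They are named here after their values were seen. The 3 that rose were Bdnf, a neurotrophin (0.70), Insig2, a relative of Insig1 (0.16), and Golm1, a Golgi membrane protein (0.14), and under upper-quartile scaling Insig2 and Golm1 did not pass. Genes on the other strand overlap 14.4% of the exonic bases of Bdnf and 29.3% of those of Golm1.

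**Figure D5:**
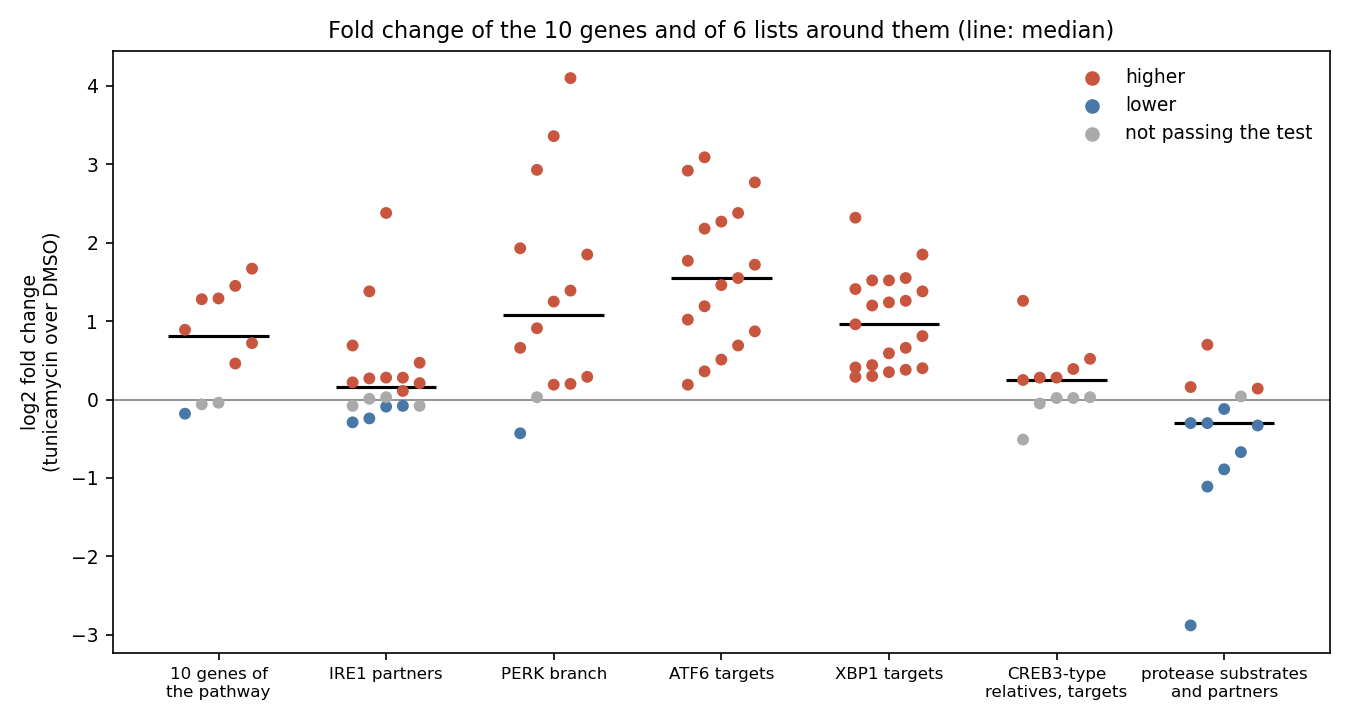
Log2 fold change (vertical axis) of the 10 genes and of the tested genes of 6 lists around them. Each point is a gene, red where it rose, blue where it fell and grey where it did not pass the edgeR test, and black lines are medians. All tested ATF6 and XBP1 targets lie above 0, while the protease list has its median at -0.30.

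For each gene that changed at least 2-fold, the gene whose profile over the 10 libraries was nearest was found among 10972 others, by root mean square distance of log2 CPM centred on the DMSO mean. The distance counts both the size of the change and its pattern over libraries. Nearest to Eif2ak3 was Jdp2, a bZIP repressor of AP-1, at a distance of 0.044 (9.52 ± 0.409 CPM with DMSO, 30.7 ± 1.17 CPM with tunicamycin, SD). Nearest to Atf6 was Sec24d, at 0.038. Nearest to Xbp1 was Slc3a2, the heavy chain of amino acid transporters, at 0.039 (229.2 ± 12.3 and 560.6 ± 21.7 CPM). Creb3l2 had no such close neighbour, its nearest being Pdia6 at 0.095. The next gene lay at 0.047, 0.046, 0.047 and 0.096, so these names are hardly set apart from the runners-up.

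The authors' deposited tables of changed genes hold 8 of the 10 genes, 7 as higher and Mbtps1 as lower. The log2 fold changes in the authors' deposited tables differed from those computed here by at most 0.006. Atf6b and Mbtps2 are in neither deposited table.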

How the data were processed

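Polyadenylated RNA of 10 mouse hippocampal neuron libraries was read as single ends, from a kit that does not mark strand, per the labels' protocols. Per the submitters' processing notes the build was mm10, and the tools were STAR 2.5.2b, Subread 1.5.1 with featureCounts, FastQC 0.11.5 and DESeq2, with no roles stated. How multi-mapping reads were counted, and which annotation was used, is not given in the sources used here. Each library has whole-number counts per gene, deposited by the authors and not normalized. Also deposited by the authors were tables of changed genes with a log2 fold change, an adjusted p-value and a normalized signal per library, which equalled the counts divided by 1 factor per library (relative tolerance 1e-4) for 100% of values.

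The members and lists were chosen with earlier results of these data known. Genes were named with GENCODE M21 (GRCm38, another name of mm10), which matched 48349 of 48709 identifiers. The 360 others held 0.0462% of counts. Groups were compared over all 10 libraries with edgeR 4.0.16 in R 4.3.3 (quasi-likelihood F test), using TMM, filterByExpr and a robust fit, adjusted by Benjamini-Hochberg over 15660 genes and called at an adjusted p under 0.05. SE is the log2 fold change over the square root of F, and 95% intervals use the t quantile at edgeR's total degrees of freedom. Ratios within a library used counts plus 0.5 and exact permutation tests (scipy 1.17.1). No library repeated another (chi-square per degree of freedom 2.07 to 9.64). The edgeR code was tested on simulated counts of 15660 genes, with 50 genes changed at each size. It recovered 68% of those changed 1.25-fold and 94% of those changed 2-fold, and called 19 unchanged genes. Alternatives were DESeq2 1.42.0, its size factors, upper-quartile scaling, other filters, lane, the replicate block and each library left out. The lengths of transcripts and the comparison of replicates 1 to 4 without the block were added after the data were seen.

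Named genes are the 10 members, the 4 genes of each list with the smallest p, those called against most of a list where 5 or fewer, the 2 most abundant of each marker list, and the nearest profile of each member with a log2 fold change of at least 1 in size. Others are named as context, after their values were seen.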

Additional observations from a re-analysis of the deposited data

Results flagged for a closer look

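Ern1 in tunicamycin replicate 3 stood apart from the other treated libraries, at 38.1 CPM where the next highest held 34.0 CPM. The ratio of Ern1 to Eif2ak3 counts stood apart in DMSO replicate 2, at a log2 value of -0.374 where the nearest of the other controls was at -0.667. In each case the gap exceeded Dixon's 95% critical value for the size of the group. The check was made on 32 groups of values, and chance flags about 1 in 20. Without tunicamycin replicate 3 the log2 fold change of Ern1 was 0.86, and without DMSO replicate 2 it was 0.94.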

How the results depend on the processing

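The 7 genes that rose passed in the same direction under all 21 alternatives each, of which lanes 2 and 3 alone rest on 1 DMSO library and give no independent support, with log2 fold changes of 1.56 to 1.71 (Eif2ak3), 1.33 to 1.55 (Creb3l2), 1.17 to 1.32 (Xbp1), 1.17 to 1.33 (Atf6), 0.77 to 0.97 (Ern1), 0.59 to 0.85 (Creb3l1) and 0.35 to 0.50 (Creb3). Mbtps1 passed under 19 of 21, but not in lane 2 alone (-0.11) or lane 3 alone (-0.14), where the control is 1 library assumed to vary like the others. Atf6b passed in lane 1 alone (-0.15) and under upper-quartile scaling (-0.15), and was at 0.08 in lane 3 alone, against 1 DMSO library. Mbtps2 passed under upper-quartile scaling (-0.18). That scaling shifts all genes by -0.115, and under it 3 members, 7 IRE1 partners, 2 PERK branch genes and 3 genes of the CREB3-type list were called lower, and 1 protease partner higher. With it 3632 genes were called higher and 6934 lower, against 4983 and 5082. With no filter on low counts 1 IRE1 partner was called lower. With 1 library left out, that count was 1 to 4, and the CREB3-type list had 0 to 1 called lower. The cause was not tested.

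With 1 library left out, the log2 difference of Mbtps1 over Mbtps2 was -0.14 to -0.09 and that of Xbp1 over Atf6 was -0.04 to 0.06. No sign of pairing by replicate number was seen. Correlations of same-numbered deviations were -0.217, 0.009, -0.062 and -0.072, and those of differently numbered ones ran from -0.155 to 0.183. So few values cannot exclude a pairing. With the replicate block over replicates 1 to 4, edgeR called 8815 genes, against 9458 from the same libraries without the block, and the same 8 members. The paired differences of ratios were 1.37 (Atf6 over Atf6b), 0.76 (Creb3l2 over Creb3l1), 1.02 (Creb3l2 over Creb3), -0.12 (Mbtps1 over Mbtps2), -0.79 (Ern1 over Eif2ak3) and -0.02 (Xbp1 over Atf6), where 4 pairs cannot give an exact permutation p below 0.125. The microglia marker Aif1, at log2 0.00, was at 0.00 to 0.04 (0.01, 0.02 and 0.03 between) under 8 alternatives. The members had at least 371 counts per library, and how depth limits their small changes was not tested.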
